A study of Homo sapiens with 9 samples.

Results

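The mucins MUC1, MUC2, MUC5AC, MUC5B, MUC12, MUC13 and MUC20 and the trefoil factors TFF1, TFF2 and TFF3 were followed in HT-29 cells, a human colorectal adenocarcinoma line that can produce mucus. These 10 genes were chosen by name from the 62710 gene identifiers of the count table, each identifier once. All libraries came from cells of the WT genotype, and as described they differed only in the stimulus. It was none (non-stimulated), 500 ng/mL flagellin or 500 ng/mL ADP-heptose, each for 2.5 h, with 3 libraries of poly(A) RNA per condition. Flagellin, the protein of the bacterial flagellum, is sensed by TLR5, and ADP-heptose, a sugar nucleotide of Gram-negative bacteria, is sensed by the kinase ALPK1. The comparisons asked which of the 10 RNAs changed with each stimulus and whether the stimuli differed. The model is a tumour line, so the values describe 1 cell line and not intestinal tissue.

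Mucins are large glycoproteins whose repeated serine- and threonine-rich stretches carry dense O-linked sugars. Secreted gel-forming mucins, packed in goblet cells, swell into the mucus layer of the gut, whereas transmembrane mucins stand on the apical surface of epithelial cells as part of the glycocalyx. Trefoil factors are small secreted peptides that are released with mucins and take part in the repair of the epithelial surface. Their genes lie in clusters: MUC2, MUC5AC and MUC5B stand with MUC6 within 249 kb on chromosome 11, MUC12 stands between MUC3A and MUC17 within 109 kb on chromosome 7, and the 3 trefoil factor genes share 54.9 kb on chromosome 21 (GRCh38, GENCODE release 29).

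The libraries held 30770448 to 38304035 counts in the non-stimulated and flagellin groups and 50054773 to 58272772 in the ADP-heptose group. Depth thus differed with this stimulus without overlap, and its part in the results was not tested. All 11 markers of intestinal epithelium were above 10 counts in at least 1 library, as were 5 of 7 goblet cell markers. That goblet list includes MUC2 and TFF3, which are among the genes studied, while CLCA1 had 0 counts in every library and ZG16 at most 10. Of 4 Paneth cell markers 2 were above 10 counts, and DEFA5 and DEFA6 had 0. Of 7 enterocyte markers 6 stayed at or under 10 counts, and the 4 endothelial markers summed to at most 0.19 CPM, the count scaled to the size of the library. Some marker sums moved with ADP-heptose: the epithelial list summed to 8019 to 8381 CPM without stimulation and 8833 to 12320 after it, the 6 leukocyte markers (2 above 10 counts, CD3E at 0) to 0.11 to 0.41 and 0.64 to 1.41, and the 5 fibroblast markers (1 above 10 counts, COL1A2 and DCN at 0) to 12.5 to 14.7 and 16.9 to 19.1. The 6 enteroendocrine markers (1 above 10 counts, NEUROD1 and GCG at 0) summed to 0.50 to 0.74 CPM without stimulation and to 0.23 to 0.44 after ADP-heptose. Their part in the results was not tested. CCL20 and CXCL8, chemokine genes read as a check that both stimuli acted, were higher by 8.01 and 7.68 on the log2 scale after ADP-heptose and by 4.74 and 2.49 after flagellin. ADP-heptose replicate 3 stood apart: the SD of its log2 differences over 12144 genes was 0.378 and 0.384 against replicates 1 and 2, which differed from each other by 0.134, while pairs within the other groups differed by 0.165 to 0.195. The results that rest on this library are therefore also given without it.

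After ADP-heptose, 4 of the 9 genes tested were higher and 0 lower. The gel-forming mucin genes MUC5AC and MUC2, the transmembrane mucin gene MUC12 and the trefoil factor gene TFF1 each had an estimated rise of more than 2-fold. The other 5 tested genes, MUC5B, MUC1, MUC13, MUC20 and TFF3, did not pass the test, and TFF2 was too low to be tested. Calls were made at a Benjamini-Hochberg adjusted p under 0.05 over all 17412 genes tested with edgeR's quasi-likelihood test. At this threshold 7.48% of all genes tested were called higher and 4.42% lower, and 2.89% were called higher with a change of at least 2-fold, against 4 of the 9 genes here. For the same 4 genes every ADP-heptose library exceeded every non-stimulated one, which held for 15.4% of all genes tested. The median log2 change of the 9 genes was 0.23, against 0.01 over all genes tested. These genes and the lists read below were chosen with earlier results of these data known. The values over all genes tested are therefore a description only, here and below, and cannot show that the chosen genes stand out. Of the other mucin genes 6 were tested, and edgeR called 0 of them after ADP-heptose. At an unadjusted p under 0.05, edgeR also gave 0 lower genes among the 9, as did DESeq2 at an adjusted p under 0.05. In RNA of whole cultures, a change in the number of cells that express a gene and a change in RNA per cell cannot be told apart.

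**Figure D1:**
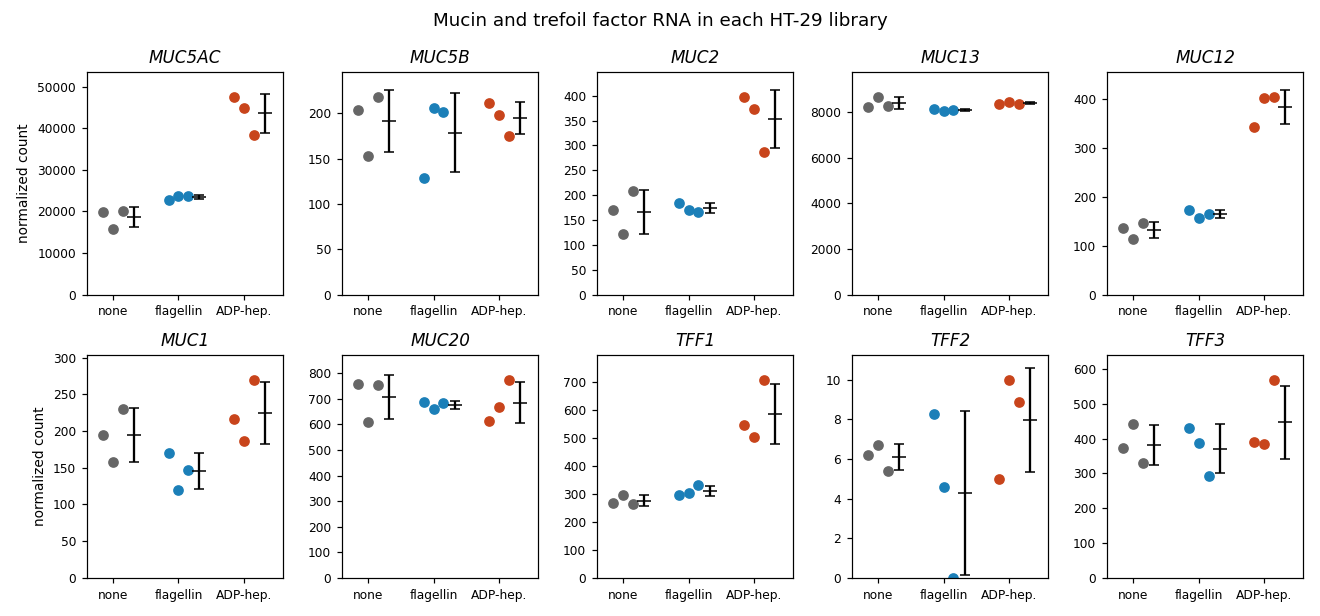
Normalised count (linear axes from 0) of each mucin and trefoil factor gene in the 9 libraries; coloured points are libraries (none: non-stimulated; ADP-hep.: ADP-heptose), and black bars give the mean and SD of 3 libraries. The ADP-heptose points stand above all others for MUC5AC, MUC2, MUC12 and TFF1, and the groups overlap for MUC5B, MUC20, TFF2 and TFF3.

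MUC5AC (ENSG00000215182, chromosome 11, 1157953 to 1201138, plus strand) encodes a gel-forming mucin best known from the stomach surface and the airways. Its normalised count, the count scaled to a common library size of 40298595, was 19890, 15840 and 20130 in the non-stimulated libraries, 22850, 23740 and 23660 after flagellin and 47590, 44750 and 38450 after ADP-heptose. The lowest ADP-heptose library, replicate 3, was still far above the highest library of either other group, and the flagellin libraries lay in a narrow band above the non-stimulated ones. The mean rose from 18620 ± 2414 (SD, n = 3) to 43600 ± 4680 after ADP-heptose, which is 2.34-fold (log2 fold change 1.23, SE 0.11, edgeR adjusted p 6.33e-06). MUC5AC took most of the counts of the 10 genes, without correction for its long exons: its share of their summed counts was 59.9% to 65.9% in the non-stimulated libraries, 69.1% to 70.2% after flagellin and 76.9% to 81.1% after ADP-heptose. The 10 genes together took 0.0672% to 0.0789% of all counts in the non-stimulated libraries and 0.111% to 0.141% after ADP-heptose, with the flagellin libraries between them at 0.0835% to 0.0862%.

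MUC2 (ENSG00000198788, chromosome 11, 1074875 to 1110511, plus strand), the main gel-forming mucin of healthy colonic mucus, was far scarcer. Normalised counts were 170.2, 121 and 209 without stimulation, 185, 170.5 and 166 after flagellin and 398, 373 and 287 after ADP-heptose. The flagellin libraries fell within the non-stimulated range, and the ADP-heptose libraries all lay above both groups, with replicate 3 the lowest. The mean went from 167 ± 43.9 to 353 ± 58.1 (SD, n = 3), a 2.12-fold rise (log2 fold change 1.08, SE 0.19, adjusted p 0.00195 by edgeR). MUC5B (ENSG00000117983, chromosome 11, 1223066 to 1262172, plus strand), the gel-forming mucin of airway and salivary secretions, is the neighbour of MUC5AC and had counts as low as those of MUC2. It measured 203, 153 and 218 without stimulation, 128, 206 and 202 after flagellin and 211, 199 and 175 after ADP-heptose, so that all 3 groups overlapped. Its log2 fold change after ADP-heptose was 0.03, with a 95% interval from -0.39 to 0.45, which leaves out a 2-fold change in either direction.

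The transmembrane mucins ranged from the gene with the largest fold change of the 9 to the gene with the narrowest interval around 0. MUC12 (ENSG00000205277, chromosome 7, 100969623 to 101018949, plus strand), a mucin of the colonic surface, measured 137, 113 and 146 without stimulation, 173, 158 and 165 after flagellin and 343, 404 and 406 after ADP-heptose. Its 3 groups formed separate bands, and ADP-heptose replicate 3 was the highest library. The mean rose 2.90-fold, from 132 ± 16.9 to 384 ± 35.4 (SD, n = 3; log2 fold change 1.54, SE 0.13, edgeR adjusted p 6.3e-06). MUC12 shares 194 exonic bases (1.13% of its exons) with the antisense gene AC105446.1, which had 59 to 238 counts and was also higher after ADP-heptose (log2 fold change 1.01, adjusted p 0.00321). Whether reads were counted by strand is not stated, so reads of the shared bases cannot be assigned to one of the pair.

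MUC13 (ENSG00000173702, chromosome 3, 124905442 to 124953819, minus strand), an epithelial transmembrane mucin of the gut, gave almost the same value in every library. Its normalised counts were 8235, 8690 and 8279 without stimulation, 8130, 8062 and 8112 after flagellin and 8377, 8470 and 8377 after ADP-heptose. The log2 fold change after ADP-heptose was 0.00 (edgeR adjusted p 0.991), with a 95% interval from -0.13 to 0.13. MUC1 (ENSG00000185499, chromosome 1, 155185824 to 155192916, minus strand), a transmembrane mucin with a signalling tail, measured 195, 157 and 230.3 without stimulation, 170, 120.1 and 147 after flagellin and 217, 186 and 269.6 after ADP-heptose. The ADP-heptose libraries overlapped the non-stimulated ones, and the log2 fold change was 0.20 (95% interval -0.20 to 0.61, edgeR adjusted p 0.525). Without ADP-heptose replicate 3, the highest library, it was 0.06.

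MUC20 (ENSG00000176945, chromosome 3, 195720882 to 195741123, plus strand), a small membrane-associated mucin, measured 758, 608 and 756 without stimulation, 689, 659 and 683 after flagellin and 614, 668 and 774 after ADP-heptose. All groups overlapped, with a log2 fold change of -0.05 after ADP-heptose (95% interval -0.29 to 0.20). This gene shares 1820 exonic bases, 42.8% of its exons, with the gene MUC20-OT1 on the same strand, and how such reads were assigned is not stated, so its level is uncertain.

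TFF1 (ENSG00000160182, chromosome 21, 42362282 to 42366594, minus strand), a trefoil peptide secreted with MUC5AC in the stomach, had normalised counts of 269, 297 and 263 without stimulation, 296, 304 and 331 after flagellin and 546, 503 and 708 after ADP-heptose. The flagellin libraries reached into the non-stimulated range, while the ADP-heptose libraries were all higher, replicate 3 by the widest margin. The mean rose 2.12-fold, from 276 ± 18.4 to 586 ± 108 (SD, n = 3; log2 fold change 1.08, SE 0.13, edgeR adjusted p 1.46e-04). TFF3 (ENSG00000160180, chromosome 21, 42311667 to 42315651, minus strand), the trefoil peptide of intestinal goblet cells, measured 372, 443 and 329.7 without stimulation, 431, 389 and 293.5 after flagellin and 389.9, 384 and 569 after ADP-heptose. Among the stimulated libraries ADP-heptose replicate 3 lay above the non-stimulated range and flagellin replicate 3 below it, and the log2 fold change was 0.23 (95% interval -0.17 to 0.63, edgeR adjusted p 0.463). TFF2 (ENSG00000160181, chromosome 21, 42346357 to 42351128, minus strand), which lies between them, had raw counts of 6, 6 and 5 without stimulation, 8, 4 and 0 after flagellin and 6, 14 and 10 after ADP-heptose. At these counts no difference was detectable, and the gene was not tested.

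**Figure D2:**
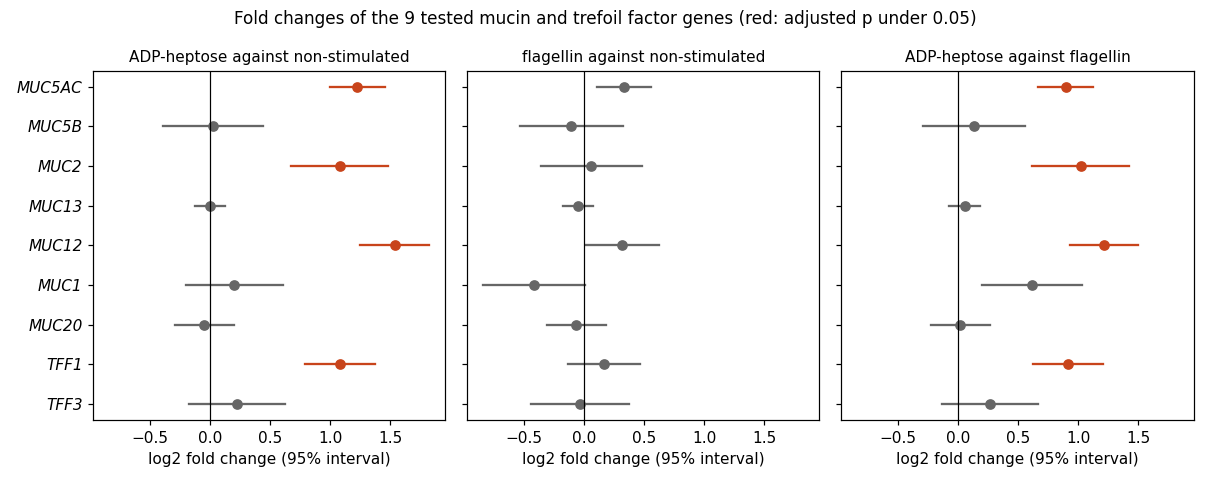
Log2 fold changes of the 9 tested genes (points) with 95% intervals (lines) from 1 edgeR fit of all 9 libraries, in 3 comparisons; red marks an adjusted p under 0.05. MUC5AC, MUC2, MUC12 and TFF1 are red in both comparisons of ADP-heptose, and no gene is red for flagellin.

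The deviation of ADP-heptose replicate 3 followed transcript length over all genes, and 6 of the 9 tested genes are among the short or the long ones. Over genes whose mean log2 CPM was 1 or more, the median difference of this library from the mean of replicates 1 and 2 was 0.36 on the log2 scale for the 388 genes with under 1 kb of exon and -0.34 for the 788 genes with over 12 kb. The short genes TFF1 (0.551 kb) and TFF3 (1.17 kb) were higher in this library by 0.43 and 0.56, and the long genes MUC2 (12.7 kb), MUC5AC (17.4 kb) and MUC5B (18.6 kb) differed by -0.42, -0.26 and -0.22. MUC12, with 17.1 kb, went against the trend at 0.12. Of the genes of middle length, MUC13 (3.50 kb) differed by -0.01, whereas MUC1 (4.72 kb) and MUC20 (4.25 kb) differed by 0.42 and 0.27, above the upper quartile of 0.18 for genes of 4 to 8 kb. Without this library the log2 fold changes after ADP-heptose were 1.21 for MUC2, 1.31 for MUC5AC, 1.50 for MUC12 and 0.93 for TFF1, and all 4 stayed called. With offsets that remove a trend with exon length and GC content in each library they were 0.99, 1.15, 1.53 and 0.79, again all called. TFF3 came to 0.03 without replicate 3 and to -0.01 with the offsets, so its positive value rested on that library. MUC1 came to 0.06 and 0.00 and MUC20 to -0.14 and -0.21 in the same fits, none of them called. Non-stimulated replicate 2 deviated from its group mean in part as ADP-heptose replicate 3 did (correlation of the log2 deviations 0.433). Without that non-stimulated library the log2 fold changes after ADP-heptose were 0.90 for MUC2, 1.12 for MUC5AC, 1.44 for MUC12 and 1.135 for TFF1. All 4 stayed called, and TFF3 came to 0.35, not called.

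**Figure D3:**
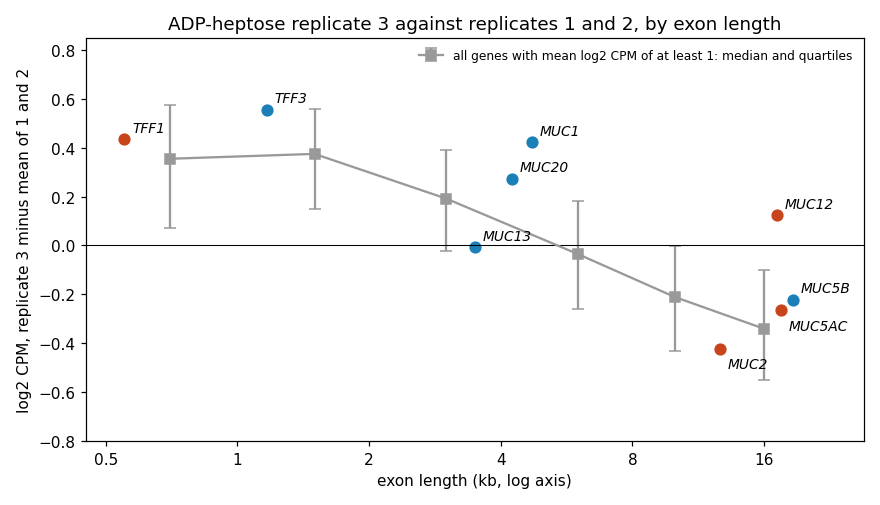
Difference in log2 CPM between ADP-heptose replicate 3 and the mean of replicates 1 and 2 (vertical axis) against exon length in kb (log axis); grey squares with bars are medians and quartiles of all genes in 6 length classes, red points are the 4 genes called higher after ADP-heptose and blue points the other tested mucin and trefoil factor genes. TFF1 and TFF3 lie high at the short end, and MUC2, MUC5AC and MUC5B lie below 0 at the long end.

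Per length of exon the order of the 10 genes differed from that of their counts. Levels are given as FPKM, the CPM per kilobase of exon, with lengths from GENCODE, and repeat-rich mucin exons may be counted incompletely, since the treatment of reads that map to several places is not stated. Without stimulation MUC13 stood highest at 59.6 ± 1.78 (SD, n = 3), followed by MUC5AC at 26.5 ± 3.43, TFF1 at 12.5 ± 0.83 and TFF3 at 8.11 ± 1.22, with no overlap between neighbours. MUC20 at 4.13 ± 0.50 and MUC1 at 1.02 ± 0.19 came next, again each apart from its neighbours. The lowest 4, MUC2 (0.327 ± 0.086), MUC5B (0.255 ± 0.046), MUC12 (0.191 ± 0.024) and TFF2 (0.183 ± 0.020), each overlapped the next in that order. Flagellin left the first 6 places in the same order. After ADP-heptose MUC5AC reached 62.0 ± 6.66, with libraries from 54.7 to 67.7 on both sides of MUC13 at 59.6 ± 0.38, so that the level per length of these genes no longer differed beyond the spread. MUC2 at 0.563 to 0.780 and MUC12 at 0.497 to 0.588 overlapped each other and stood apart from MUC5B, which stayed at 0.234 to 0.281.

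**Figure D4:**
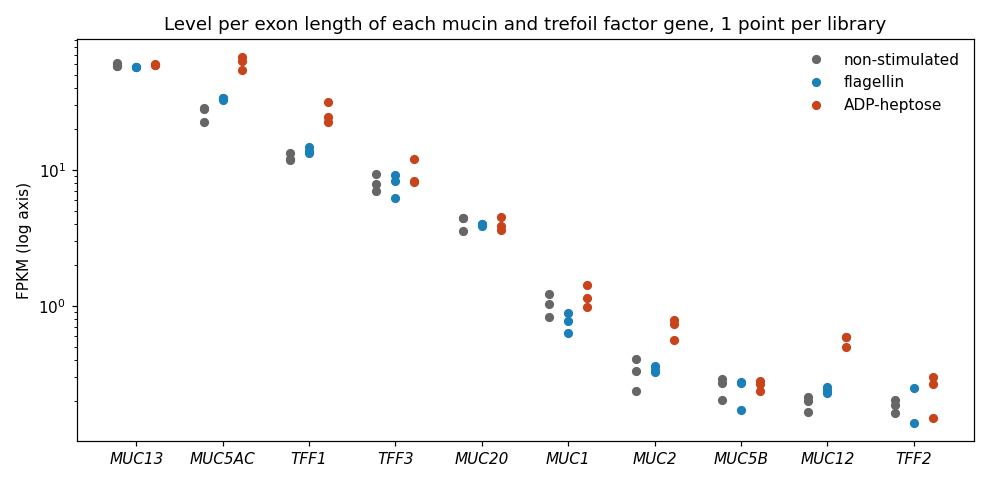
Level per exon length (FPKM, log axis) of the 10 genes, ordered by the non-stimulated mean, with 1 point per library and colours for the 3 groups; the flagellin library with 0 counts of TFF2 cannot be drawn. MUC13 stands at 57.2 to 61.6 in all 9 libraries, and the ADP-heptose points of MUC5AC rise to its level.

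Flagellin changed none of the 9 genes at an adjusted p under 0.05: edgeR called 0 higher and 0 lower, while it called 0.368% of all genes tested higher and 0.0115% lower. DESeq2 also called 0 of the 9 in either direction. At an unadjusted p under 0.05, 2 of the 9 were higher, MUC5AC and MUC12. MUC5AC had a log2 fold change of 0.33 (SE 0.10, 1.26-fold, edgeR p 0.00809, adjusted p 0.741), with the lowest flagellin library at 22850 above the highest non-stimulated one at 20130. Its adjusted p ranged from 0.0179 to 1 over 18 alternatives and fell under 0.05 in 3 of them, at 0.0179 with no filter on low counts, 0.0392 in a fit of only the 6 libraries compared and 0.0492 without ADP-heptose replicate 3. MUC12 had 0.32 (SE 0.14, edgeR adjusted p 1), also without overlap between the groups, and MUC13 lay without overlap below, at -0.05 (SE 0.06). Groups without overlap in either direction were found for these 3 of 9 genes and for 12.9% of all genes tested. MUC1 had the lowest value, -0.41 (95% interval -0.84 to 0.01), and the intervals of MUC2 (-0.36 to 0.48), TFF1 (-0.14 to 0.47) and TFF3 (-0.44 to 0.37) all left out a 2-fold change. The median of the 9 genes was -0.04, against 0.01 over all genes tested.

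Set directly against each other at the same dose and time, ADP-heptose and flagellin differed for the same 4 genes. MUC12, MUC2, TFF1 and MUC5AC were higher after ADP-heptose by 1.22 (SE 0.13), 1.02 (SE 0.19), 0.92 (SE 0.13) and 0.90 (SE 0.11) on the log2 scale, with edgeR adjusted p of 5.8e-05, 0.00379, 7.23e-04 and 1.25e-04. EdgeR called 4 of the 9 genes higher and 0 lower, and DESeq2 called 5 higher and 0 lower. Among all genes tested edgeR called 5.4% higher and 2.76% lower, a description only, since the genes were chosen with earlier results known. The ADP-heptose libraries lay above all flagellin libraries for 6 of the 9, with MUC1 and MUC13 added to the 4, where 14.2% of all genes tested did so. For MUC1 the log2 difference was 0.62 (SE 0.19, edgeR adjusted p 0.0748), and its adjusted p ran from 0.00777 to 0.256 over 18 alternatives, under 0.05 in 5 of them. No difference between the stimuli passed the test for MUC5B (95% interval -0.29 to 0.56), MUC13 (-0.07 to 0.18), MUC20 (-0.23 to 0.26) or TFF3 (-0.14 to 0.67). This comparison shares the ADP-heptose libraries with the comparison of ADP-heptose against no stimulus and the flagellin libraries with the other, so the calls are not independent. The stimuli had equal mass per volume, but the responses were not of matched strength. CCL20 and CXCL8 rose by 8.01 and 7.68 on the log2 scale after ADP-heptose and by 4.74 and 2.49 after flagellin. Whether the 4 differences follow the strength of the response was not tested.

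The bases just before the start site are shown for MUC2 and MUC12, called after ADP-heptose, and for MUC13, whose RNA hardly moved. RefSeq promoter sequences were matched for 4 of the 10 genes (MUC1, MUC2, MUC12 and MUC13; GRCh38.p14), and the others were MUC5AC, MUC5B, MUC20, TFF1, TFF2 and TFF3. Each window holds the 250 bases before the RefSeq start, written 5′ to 3′ on the strand of the gene: MUC2 at chr11:1074624-1074873 on the plus strand, MUC12 at chr7:100969315-100969564 on the plus strand and MUC13 at chr3:124934752-124935001 on the minus strand. The RefSeq start lies 1 base from the GENCODE start for MUC2, 58 bases from it for MUC12 and 19.1 kb inside the GENCODE gene for MUC13, so the last window belongs to another annotated start. Capitals mark matches to the AP-1 motif TGANTCA, the CRE motif TGACGTCA and the TATA motif TATAA, each searched on both strands.
MUC2 promoter: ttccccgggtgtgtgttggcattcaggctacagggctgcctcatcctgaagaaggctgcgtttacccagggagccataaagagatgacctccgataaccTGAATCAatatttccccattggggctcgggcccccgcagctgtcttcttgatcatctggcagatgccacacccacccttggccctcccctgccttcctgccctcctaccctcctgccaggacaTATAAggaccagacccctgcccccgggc
MUC12 promoter: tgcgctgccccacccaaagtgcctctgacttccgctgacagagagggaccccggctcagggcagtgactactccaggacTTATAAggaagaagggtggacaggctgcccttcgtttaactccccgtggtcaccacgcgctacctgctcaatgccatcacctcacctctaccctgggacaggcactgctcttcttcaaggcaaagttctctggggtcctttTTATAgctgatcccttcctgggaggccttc
MUC13 promoter: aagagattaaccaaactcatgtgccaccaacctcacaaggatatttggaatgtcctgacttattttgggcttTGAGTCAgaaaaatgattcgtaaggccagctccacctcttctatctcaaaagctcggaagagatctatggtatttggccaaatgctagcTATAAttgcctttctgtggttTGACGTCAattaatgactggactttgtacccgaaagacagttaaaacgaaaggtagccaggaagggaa

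MUC2 held 1 AP-1 match, TGAATCA, 151 to 145 bases before the start, and MUC13 held another, TGAGTCA, at 178 to 172 bases, while 6.57% of 35116 promoter windows of this length held at least 1. MUC13 also held the CRE match TGACGTCA at 68 to 61 bases, found in 1.65% of windows. A TATAA match on either strand was found in all 4 windows and in 18.9% of all windows. It lay 28 to 24 bases before the start in MUC2 and 24 to 20 bases in MUC1, both as TATAA on the gene's strand. In MUC12 the match at 30 to 26 bases read TTATA on the gene's strand, so that TATAA stood on the opposite strand. MUC12 held 2 further matches that overlap each other at 171 to 166 bases. In MUC13 the match lay farther away, at 89 to 85 bases. The κB consensus and the forkhead motif TGTTTAC had 0 matches in the 4 windows, and 9.96% and 2.98% of all windows held them. These letters describe the windows only, and whether any motif takes part in the changes was not tested.

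Across the 9 libraries the log2 CPM of the 4 called genes moved together, with Pearson correlations from 0.791 (MUC2 and TFF1) to 0.970 (MUC5AC and MUC12). These correlations follow the group differences that all 4 share and are a description only. Among 12143 genes whose mean log2 CPM was 1 or more, the profiles most like MUC5AC were those of BMP2, HELZ2 and HIVEP2 (each r = 0.991), and the most like MUC2 were TRAF1 (0.987), JOSD1 (0.982) and DUSP3 (0.978). For MUC12 they were STK10 (0.993), RHOF (0.991) and LAMB3 (0.991), and for TFF1 they were TNIP2 (0.994), LRG1 (0.992) and CHMP7 (0.992). The size of the change differed widely among these neighbours: after ADP-heptose HIVEP2 had a log2 fold change of 2.55 and BMP2 of 2.25, whereas DUSP3 had 0.23 and CHMP7 0.29.

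Other genes of mucus biology were read from 6 lists. In the list of other mucins, 6 of 14 genes were tested and 0 were called after ADP-heptose by edgeR, with 2 higher and 1 lower at an unadjusted p under 0.05 and 1 higher by DESeq2. MUC17, the neighbour of MUC12, was named after its values were seen: it had normalised counts of 2.24 to 14.1 without stimulation and 17.8 to 50.7 after ADP-heptose (log2 fold change 1.90, SE 0.62, edgeR adjusted p 0.0685). Of the goblet cell products, 7 of 14 genes were tested, edgeR and DESeq2 called 0, and 0 had an unadjusted p under 0.05, and their median log2 change was -0.02. Without ADP-heptose replicate 3, 2 of the other mucins were called higher and 2 of the goblet cell products lower. Calls over all genes tested also rose in that fit, from 1302 higher and 770 lower to 2018 and 1270.

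Transcription factors of secretory cells and mucin genes moved in both directions after ADP-heptose. Of 14 tested regulators 3 were higher and 4 lower, the median log2 change being -0.37, beside 7.48% higher, 4.42% lower and a median of 0.01 over all genes tested. All 7 calls held under each of 18 alternatives, and the lower calls came to 7 with library totals or with the offsets. KLF4, a factor of goblet cell differentiation, rose from 1018 ± 29.8 to 2057 ± 115 normalised counts (SD, n = 3; log2 fold change 1.02, SE 0.07, edgeR adjusted p 1.12e-06), and SOX9, a factor of crypt progenitors, rose by 0.98 on the log2 scale (SE 0.09, edgeR adjusted p 1.32e-05). ATOH1, which directs intestinal cells to the secretory lineage, fell to 86.3 to 117 normalised counts from 297 to 409.5 (log2 fold change -1.67, SE 0.17, edgeR adjusted p 2.14e-05). FOXA1, a forkhead factor of gut epithelium, fell by 0.75 on the log2 scale (SE 0.09). The remaining called regulators, named because the counts are small, were FOXA3 (0.82) among the higher and FOXA2 (-0.49) and HES1 (-0.41) among the lower. SPDEF, a factor of goblet cell maturation also named after its values were seen, had 0.16 (95% interval -0.11 to 0.42). Flagellin gave 0 called regulators by edgeR and by DESeq2, with 1 higher and 1 lower at an unadjusted p under 0.05.

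**Figure D5:**
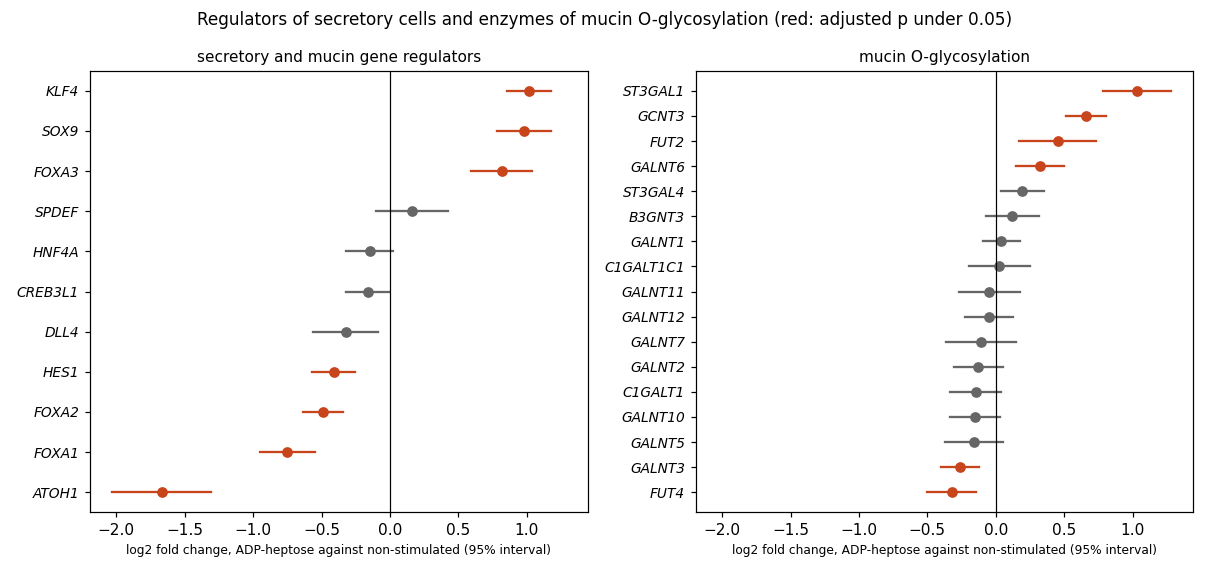
Log2 fold changes after ADP-heptose with 95% intervals for the 11 regulators and 17 enzymes of mucin O-glycosylation whose mean log2 CPM was 1 or more; red marks an adjusted p under 0.05. KLF4, SOX9 and FOXA3 lie to the right and ATOH1 farthest to the left at -1.67, while most of the enzymes lie near 0.

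Among the enzymes that build mucin O-glycans, 4 of 21 tested were higher and 2 lower after ADP-heptose, the median log2 change being -0.05. Over all genes tested 7.48% were higher and 4.42% lower, with a median of 0.01. ST3GAL1, a sialyltransferase that caps core 1 glycans, rose by 1.03 on the log2 scale (SE 0.11, edgeR adjusted p 5.12e-05), with normalised counts of 8575 to 9773 without stimulation and 14940 to 20960 after ADP-heptose. GCNT3, the branching enzyme of core 2 and core 4 glycans, rose from 26650 ± 1113 to 42110 ± 1784 normalised counts (SD, n = 3; log2 fold change 0.66, SE 0.07, edgeR adjusted p 3.15e-05). Among the transferases that start the chains GALNT6 was higher at 0.32 (edgeR adjusted p 0.0224) and GALNT3 lower at -0.26 (edgeR adjusted p 0.0204), but these calls were lost under 6 and 5 of 18 alternatives. The fucosyltransferase genes FUT2 (0.45) and FUT4 (-0.32), named because the counts are small, were lost under 13 and 3 of them.

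In the list of mucin release and shedding, 1 of 16 tested genes was higher and 1 lower after ADP-heptose, shares near the 7.48% and 4.42% of all genes tested. XBP1, a factor of the secretory stress response, rose by 0.63 on the log2 scale (SE 0.07, edgeR adjusted p 3.85e-05), and the serine protease gene TMPRSS2 had -0.54 with an edgeR adjusted p of 0.0498, a call lost under 10 of 18 alternatives. This list had 4 higher and 0 lower calls when ADP-heptose replicate 3 was left out, a fit with 2018 higher and 1270 lower calls over all genes. Of the 5 tested binding partners of trefoil factors and mucins, EGFR, a growth factor receptor, was higher at 0.78 (SE 0.16, edgeR adjusted p 0.00584). Its normalised counts were 4333 to 4959 without stimulation, 5496 to 5649 after flagellin and 5623 to 9574 after ADP-heptose. The last 2 ranges overlapped, and ADP-heptose against flagellin was not called (0.55, edgeR adjusted p 0.0531). Without ADP-heptose replicate 3, 2 partners were called higher against non-stimulated cells. Over the 6 lists, with 6, 7, 14, 21, 16 and 5 genes tested in the order given, 16 genes were called after ADP-heptose. By list, calls higher were 0, 0, 3, 4, 1 and 1, and calls lower were 0, 0, 4, 2, 1 and 0. Of all genes tested 7.48% were called higher and 4.42% lower. After flagellin edgeR and DESeq2 called 0 of the listed genes, with 4 higher and 1 lower at an unadjusted p under 0.05 by edgeR. Without ADP-heptose replicate 3, edgeR called 1 O-glycosylation gene and 1 binding partner higher after flagellin. Over all genes that fit called 165 higher and 6 lower after flagellin, against 64 and 2 with all libraries.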

How the data were processed

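Poly(A) RNA of 9 HT-29 libraries had been sequenced as paired 150-base reads, aligned with HISAT2 and counted with featureCounts, and the authors deposited raw counts per gene, 1 column per library. Versions, genome build, annotation, strand setting and the handling of reads mapping to several places are not given in the sources used here. The study's text speaks of independent experiments, and p-values measure the spread between these libraries. The table has 62972 lines, and 232 identifiers listed more than once with identical counts were kept once. Dose and time were taken from the study's methods.

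Counts of all genes were fitted once with edgeR 4.0.16 in R 4.3.3 (TMM, filterByExpr, robust quasi-likelihood F test, all 9 libraries, Benjamini-Hochberg adjustment over 17412 genes; 45298 identifiers were too low). Every adjusted p is edgeR's unless DESeq2 1.42.0 is named. With 3 libraries against 3 an exact permutation test cannot give a two-sided p below 0.1. FPKM were computed from TMM-scaled counts and GENCODE release 29 exon lengths. The fits were tested on simulated data. Alternatives were DESeq2's size factors or test, library totals, no filter or a mean of at least 10 counts, only the 6 libraries compared, a replicate block, offsets for length and GC content (splines with 4 degrees of freedom), both together, a 2-fold threshold and each of the 9 libraries left out. Figures were drawn with matplotlib.

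The 10 genes and the lists were chosen with earlier results of these data known. Named were all 10 genes, up to 4 called genes per list by smallest adjusted p after ADP-heptose, the 3 genes most correlated with each called gene, CXCL8 and CCL20, and others where the text says so. A further regulator of the lists is not reported here and is in none of the counts of listed genes. The organoid, RT-qPCR and protein measurements were not analysed here.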

Additional observations from a re-analysis of the deposited data

How the results depend on the processing

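The 4 genes called after ADP-heptose were called in both comparisons of that stimulus under each of the 18 alternative fits, with log2 fold changes against non-stimulated cells of 0.90 to 1.27 for MUC2, 1.10 to 1.31 for MUC5AC, 1.40 to 1.61 for MUC12 and 0.79 to 1.17 for TFF1. With at least 2-fold required, all 4 remained against non-stimulated cells and 2 against flagellin. The count of genes higher after flagellin went from 0 to 1 (MUC5AC) with no filter, in the fit of only the 6 libraries compared, and in the range of 0 to 1 when each library was left out. The 16 calls in the lists became 3 at 2-fold and 11 to 25 with each library left out, 25 without ADP-heptose replicate 3. Over all genes tested, calls after ADP-heptose also rose without that library, from 1302 higher and 770 lower to 2018 and 1270. The cause was not tested.

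Signs changed only where no test was passed. For MUC5B after ADP-heptose the log2 value was -0.107 with library totals, -0.067 with the length and GC offsets, -0.062 with these and the replicate block, and -0.113 to 0.130 with each library left out. For MUC13 it was -0.134 with library totals, -0.002 with DESeq2's size factors and with its test, -0.007 with no filter, -0.012 with a mean count of at least 10, -0.006 with the offsets alone or with the block, and -0.014 to 0.025 with each library left out. For MUC20 it was -0.145 to 0.016 with each library left out, and for TFF3 -0.014 with the offsets and -0.004 with offsets and block. After flagellin the ranges with each library left out were -0.122 to 0.253 for MUC2, -0.244 to 0.084 for MUC5B and -0.165 to 0.098 for TFF3. Between the stimuli MUC13 came to -0.065 with library totals, MUC20 to -0.106 with library totals, -0.084 with the offsets, -0.083 with offsets and block and -0.066 to 0.087 with each library left out, and MUC5B to -0.062 to 0.254. Library totals moved the median of all genes after ADP-heptose to -0.13 and the calls from 1302 higher and 770 lower to 917 and 1884; the offsets gave 1380 and 1520.

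Deviations of same-numbered libraries from their group means had correlations from -0.379 to 0.236, and those of differently numbered ones from -0.383 to 0.433. The deviation of ADP-heptose replicate 3 enters these values, so they cannot decide whether the numbers mark shared experiments. The main fit took no pairs, and a replicate block was an alternative. With the replicate block 4 of the 9 genes were higher after ADP-heptose and 0 after flagellin, 5 were higher than after flagellin (MUC1 added, 0.62, edgeR adjusted p 0.0363), and 12 listed genes were called. MUC1, MUC2, MUC5B and MUC12, with 101 to 565 counts per library, had wider intervals than MUC13, with 6357 to 11858, and TFF2 had too few counts for a test.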
